A study of Mus musculus with 6 samples.

Results

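A set of 10 genes that carry serine and palmitate through ceramide to the galactolipids of myelin were followed in O4-purified brain cells of WT and Npc1-/- mice. They were Sptlc1, Sptlc2, Kdsr, Cers2, Cers4, Degs1, Fa2h, Ugt8a, Gal3st1 and Sgms1, taken by gene symbol for the enzymes they encode, and they are 10 of the 55492 genes in the expression table. All 10 passed the filter on low values that left 15245 genes to be tested. Brains of untreated 16-day-old (P16) mice were dissociated, and cells were captured with magnetic microbeads against the O4 antigen, 1 mouse per library of poly(A) RNA, with 3 WT and 3 Npc1-/- mice. The Npc1-/- mice carry the Npc1nih null allele in every cell of the body, so a value in these cells cannot be assigned to loss of NPC1 in the oligodendrocyte lineage rather than in its surroundings. Per the methods, they were F1 hybrids of Npc1+/- parents on the BALB/cJ and C57BL6/J backgrounds. The methods speak of littermate mice without giving the litters of these libraries.

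Myelin is rich in sphingolipids whose backbone is ceramide. Serine palmitoyltransferase (SPTLC1 with SPTLC2) joins serine to palmitoyl-CoA, KDSR reduces the product to sphinganine, a ceramide synthase adds a second fatty acid, and DEGS1 inserts the double bond that turns dihydroceramide into ceramide. FA2H hydroxylates the fatty acid, UGT8 (gene Ugt8a) adds galactose to give galactosylceramide, and GAL3ST1 sulfates that lipid to sulfatide, whereas SGMS1 puts the phosphocholine headgroup on ceramide in the Golgi and so makes sphingomyelin. In the brain, galactosylceramide and sulfatide are made chiefly by oligodendrocytes. The O4 antibody binds sulfatide, so the cells were selected by a product of the pathway measured here, and the genotypes are compared among cells that carry that product.

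The libraries held between 40000000 and 50000000 fragments, as estimated from the steps between low FPKM values. Npc1 itself was at 41.1, 45.5 and 43.9 scaled TPM in WT and at 3.72, 5.17 and 4.35 in Npc1-/- (log2 fold change -3.17, SE 0.12, adjusted p = 0.000398 in limma). Scaled TPM is the deposited TPM (an abundance per transcript length, scaled to one total in every library) divided by a size factor per library, and it is the level given throughout. Mbp alone took between 18.8% and 26.1% of all TPM, and the myelinating markers were high in every library, which goes with the label of O4+ oligodendrocytes. Markers of other cells were present as well and differed between genotypes: the summed level of 7 microglia markers ran from 183 to 286 in WT and from 86.4 to 157 in Npc1-/-, that of 5 endothelial markers from 748 to 893 and from 401 to 659.6, and that of 4 pericyte markers from 328 to 487 and from 198 to 250.4. None of these markers was at 0 in any library. Astrocyte, neuron, progenitor, immature oligodendrocyte and choroid plexus markers were also detected. Of these, 2 of the 7 neuron markers passed the test, Nefl and Nefm, both higher in Npc1-/-, and none of the others. Npc1-/- replicate 3 differed from the other 5 libraries in its sex-linked genes, with Xist at 21.4 and Ddx3y at 0.

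The stretches upstream of 4 of the genes are printed because Ugt8a, Cers2 and Gal3st1 had higher mean levels in Npc1-/- and Sgms1 a lower one. Each is the 250 bases before a RefSeq transcription start on GRCm38.p6, written 5′ to 3′ on the gene's strand, with the E-box letters CANNTG in capitals. Ugt8a is at chr3:125938653-125938902 (minus strand), Cers2 at chr3:95314940-95315189 (plus), Gal3st1 at chr11:3983386-3983635 (plus) and Sgms1 at chr19:32388513-32388762 (minus).
Ugt8a: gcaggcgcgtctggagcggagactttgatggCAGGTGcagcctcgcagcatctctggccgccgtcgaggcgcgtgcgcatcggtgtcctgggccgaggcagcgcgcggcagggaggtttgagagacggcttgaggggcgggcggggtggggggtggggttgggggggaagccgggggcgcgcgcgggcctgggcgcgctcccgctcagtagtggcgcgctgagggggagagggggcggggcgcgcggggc
Cers2: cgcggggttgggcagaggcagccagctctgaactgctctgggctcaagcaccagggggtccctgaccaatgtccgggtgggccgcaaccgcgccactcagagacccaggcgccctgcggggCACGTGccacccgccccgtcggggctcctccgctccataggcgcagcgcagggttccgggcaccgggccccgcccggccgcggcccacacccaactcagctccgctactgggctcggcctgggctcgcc
Gal3st1: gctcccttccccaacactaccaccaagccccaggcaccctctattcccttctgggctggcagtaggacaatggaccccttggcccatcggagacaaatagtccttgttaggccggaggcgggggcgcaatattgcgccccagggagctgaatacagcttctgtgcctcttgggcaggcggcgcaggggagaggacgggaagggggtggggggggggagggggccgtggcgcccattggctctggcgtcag
Sgms1: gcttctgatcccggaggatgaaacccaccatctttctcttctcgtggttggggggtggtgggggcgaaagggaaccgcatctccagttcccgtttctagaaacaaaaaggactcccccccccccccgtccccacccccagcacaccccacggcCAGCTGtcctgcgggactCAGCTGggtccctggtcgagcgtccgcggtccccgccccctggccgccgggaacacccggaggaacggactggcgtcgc
All 4 were rich in G and C. The GC content was 76.8% for Ugt8a with 32 CpG, 74.8% for Cers2 with 24, 65.6% for Gal3st1 with 11 and 67.2% for Sgms1 with 19, and the medians over 32851 mouse windows of this length were 52.4% and 6. RefSeq windows matched 9 of the 10 genes (15 windows, none for Fa2h), and 8 of those 15 held an E-box against 66.2% of all windows. As a pattern, CANNTG is the same on both strands, although the middle letters of a given box can differ. On either strand, the SOX-like letters ACAAAG stood in 2 of the 15 windows (16.5% of all) and ATTGT, whose reverse complement begins with the same letters as ACAAAG, in 2 overlapping windows of Gal3st1 (27.7% of all). The MYRF-like letters CTGGTAC stood in 1 window, of Sgms1 (1.83% of all), CTGGCAC in none (4.19% of all) and the sterol-response-like TCACCCC in none (4.31% of all). A gene-level value does not tell which start was used, and Cers2, Gal3st1 and Sgms1 have more than 1 RefSeq window.

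Levels differed widely along the pathway, and its galactolipid end was the highest. In WT cells Ugt8a stood first with 379 ± 22.7 scaled TPM (SD, n = 3), above 98.8% of the genes tested, and Fa2h second with 206 ± 16.4. Cers2 (143 ± 3.73) and Gal3st1 (137 ± 16.6) came next, and their ranges overlapped in both genotypes. Degs1 followed at 81.8 ± 1.07, Sgms1 at 44.6 ± 3.40 and Sptlc2 at 27.2 ± 1.57, and Sgms1 and Sptlc2 were apart in WT but overlapped in Npc1-/-. Sptlc1 was at 14.6 ± 0.806. Kdsr (7.83 ± 2.20) and Cers4 (7.60 ± 1.65) overlapped in WT and were apart in Npc1-/-, with Kdsr the higher. The entry enzyme and the reductase were thus measured at levels well below those of the hydroxylase, galactosyltransferase and sulfotransferase in all 6 libraries. Together the 10 genes took between 0.0869% and 0.134% of all TPM.

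**Figure D1:**
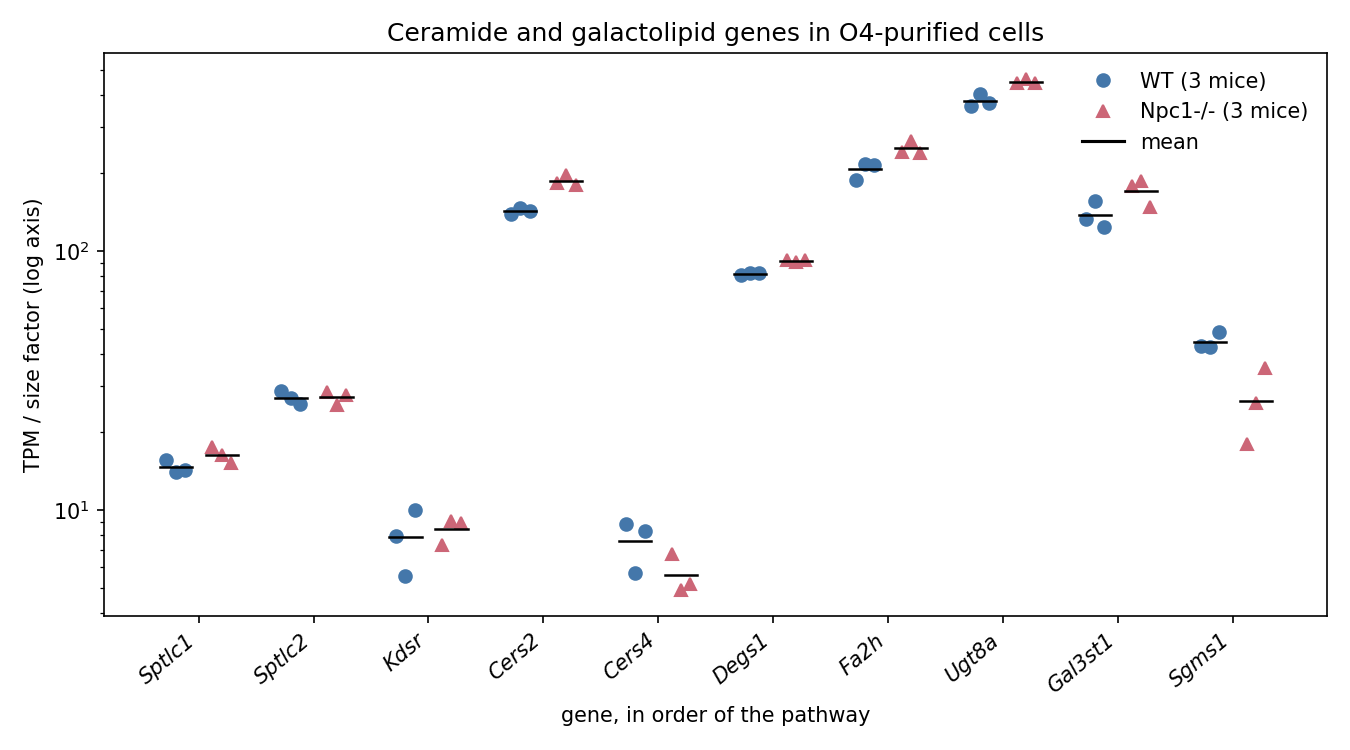
Scaled TPM (TPM divided by the size factor, log axis) of the 10 genes in pathway order, with 1 point per mouse, 3 WT and 3 Npc1-/-, and the mean as a bar. Ugt8a is the highest gene in every library, Cers2, Degs1, Fa2h and Ugt8a are higher in all Npc1-/- than in all WT libraries, and Sgms1 runs from 18.0 to 35.4 in Npc1-/- below its WT range of 42.5 to 48.5.

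The comparison of genotypes asks whether loss of NPC1 goes with another expression of these enzymes in cells of the oligodendrocyte lineage. None of the 10 genes passed an adjusted p of 0.05 in limma, where 124 of the 15245 genes tested (0.813%) did. At an unadjusted p below 0.05 there were 5 of the 10, against 22.2% of all genes. The genotypes did not overlap for 5 of the 10, against 27.5% of all genes: Cers2, Degs1, Fa2h and Ugt8a with all Npc1-/- mice above all WT mice (13.3% of all genes), and Sgms1 with all below (14.2%). The fold change was positive for 8 (51% of all genes) and negative for 2 on the size-factor scale, with a median of 0.16 on the log2 scale beside 0.01 over all genes tested. The adjusted p ranged from 0.0623 for Cers2 to 0.978 for Sptlc2. In RNA pooled from sorted cells, fewer cells of a type and less RNA per cell cannot be told apart, and the p-values measure the spread between these mice.

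At the entry to the pathway the genotypes lay close together. Sptlc1 (ENSMUSG00000021468, chr13:53332748-53377397, minus strand), a subunit of serine palmitoyltransferase, was at 15.5, 14.0 and 14.3 scaled TPM in WT and at 17.5, 16.4 and 15.1 in Npc1-/-. The lowest mutant value lay inside the WT range, and the log2 fold change was 0.15 (SE 0.09, 95% interval -0.07 to 0.37, adjusted p = 0.402 in limma). Sptlc2 (ENSMUSG00000021036, chr12:87305058-87388355, minus strand), its catalytic partner, had 28.7, 27.2 and 25.6 in WT and 28.7, 25.4 and 27.8 in Npc1-/-. These ranges nearly coincide, and the interval of the log2 fold change, -0.21 to 0.22, bounds a difference in either direction at about that size. For Kdsr (ENSMUSG00000009905, chr1:106720459-106759727, minus strand), the reductase of the second step, WT mice had 7.95, 5.58 and 9.98 and Npc1-/- mice 7.35, 9.08 and 8.89. All 3 mutant values lay within the WT range, and the spread between WT mice left an interval of -0.35 to 0.61.

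The ceramide synthases, which choose the length of the fatty acid, differed with opposite signs, neither past the threshold. Cers2 (ENSMUSG00000015714, chr3:95314791-95323599, plus strand) makes ceramides with the very long chains typical of myelin galactolipids. It was at 139, 146 and 143 scaled TPM in WT and at 183, 197 and 180.5 in Npc1-/-. Every mutant library stood above every WT library, with a gap wider than the spread within either genotype. The log2 fold change was 0.39 (SE 0.08, 95% interval 0.19 to 0.59), or 1.31-fold, and its adjusted p in limma was 0.0623. Cers2 shares 337 bases with the antisense gene 6330562C20Rik and 75 with Setdb1 on the other strand, and whether strand was used in counting is not given in the sources used here. Cers4 (ENSMUSG00000008206, chr8:4493026-4531680, plus strand), another synthase, had 8.82, 5.72 and 8.26 in WT and 6.79, 4.90 and 5.17 in Npc1-/-. Just 1 mutant value lay above the lowest WT value, and the log2 fold change of -0.39 had an interval of -0.84 to 0.05 (adjusted p = 0.280 in limma).

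Degs1 (ENSMUSG00000038633, chr1:182275772-182282804, minus strand), the desaturase that completes ceramide, was the steadiest of the genes. It had 80.6, 82.5 and 82.4 scaled TPM in WT and 92.3, 91.0 and 92.1 in Npc1-/-. The genotypes were apart by a step several times the spread within each, but small in size: 1.12-fold, log2 fold change 0.17 (SE 0.07, adjusted p = 0.241 in limma).

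The galactolipid branch had higher means in Npc1-/- at each of its enzymes on the size-factor scale, none past the threshold and all below 0 on TPM as deposited. Fa2h (ENSMUSG00000033579, chr8:111345135-111393824, minus strand) was at 188, 218 and 214 scaled TPM in WT and at 241, 266 and 239 in Npc1-/-. Ugt8a (ENSMUSG00000032854, chr3:125865271-125938619, minus strand), whose upstream window is printed above, was at 362, 405 and 371 and at 443, 463 and 444. For both of these, all mutant libraries were above all WT libraries, by 1.21-fold for Fa2h and 1.19-fold for Ugt8a. The log2 fold changes were 0.27 (SE 0.10, adjusted p = 0.179) and 0.25 (SE 0.10, adjusted p = 0.194) in limma. Gal3st1 (ENSMUSG00000049721, chr11:3983636-3999326, plus strand), the sulfotransferase that makes the O4 antigen, had 133, 156 and 123 in WT and 178, 187 and 148 in Npc1-/-. Here the lowest mutant library, replicate 3, lay below the highest WT library, and the log2 fold change was 0.31 (SE 0.13, adjusted p = 0.218 in limma). Beside these, 8 of 9 myelinating oligodendrocyte markers had positive fold changes (median 0.32), and Mag and Cldn11 were higher without overlap (13.3% of all genes). Of 6 immature oligodendrocyte markers, 5 had negative fold changes (median -0.18), and Tcf7l2 and Itpr2 were lower without overlap (14.2% of all genes). Of 5 progenitor markers, 3 had positive fold changes (median 0.26), and all overlapped. None of these markers passed the test. The part of the makeup of the sorted cells in the values of this branch was not tested.

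Sgms1 (ENSMUSG00000040451, chr19:32122727-32389714, minus strand), which competes with UGT8 for ceramide, showed the widest difference of the 10. It was at 42.8, 42.5 and 48.5 scaled TPM in WT and at 18.0, 25.9 and 35.4 in Npc1-/-. All mutant libraries were below all WT libraries, and they were also spread far more widely, with an SD on the log2 scale of 0.48 against 0.11 in WT. The log2 fold change was -0.79 (SE 0.22, 95% interval -1.32 to -0.27), or 0.577 of the WT level, with an adjusted p of 0.0994 in limma. Without Npc1-/- replicate 3 it was -1.03 (adjusted p = 0.0418), a fit in which 3.13% of all genes passed. Without the lowest library, Npc1-/- replicate 1, it was -0.55 (adjusted p = 0.108). The gene shares 499 bases with 2700046G09Rik on the opposite strand.

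**Figure D2:**
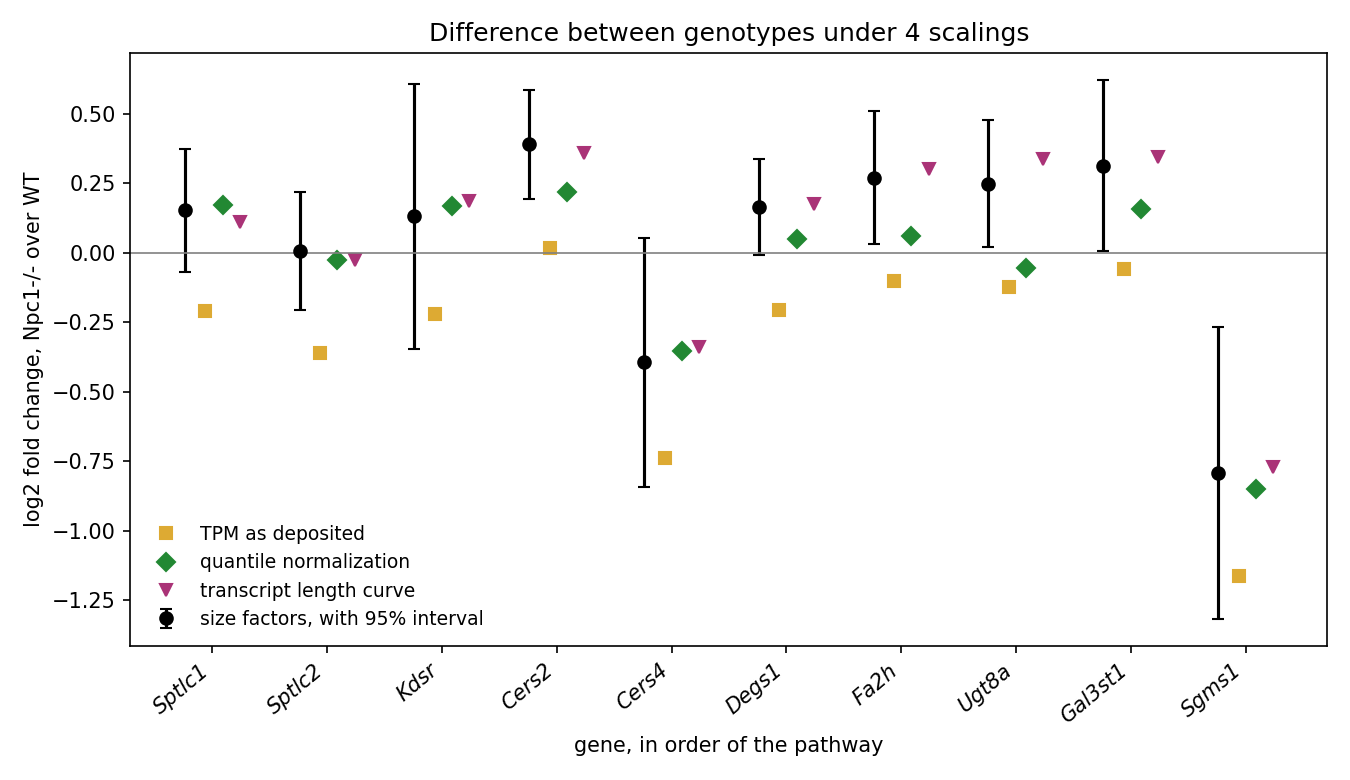
Log2 fold change of Npc1-/- over WT for the 10 genes, on the size-factor scale with its 95% interval (black) and, without intervals, on TPM as deposited, after quantile normalization and after removal of a curve on transcript length. Sgms1 and Cers4 lie below 0 on every scale. Cers2 lies above 0, but at just 0.02 on deposited TPM. Ugt8a is at 0.25 with size factors, -0.12 on deposited TPM and -0.06 after quantile normalization.

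The direction of the small differences depended on how libraries were scaled. On TPM as deposited the median of all genes tested moved by -0.33 on the log2 scale, with Mbp at 18.8% to 22.2% of the total in WT and at 20.2% to 26.1% in Npc1-/-; its part in that shift was not tested. There Sptlc1, Sptlc2, Kdsr, Degs1, Fa2h, Ugt8a and Gal3st1 all changed sign, to between -0.36 and -0.06, and Sgms1 was the 1 gene of the 10 whose genotypes did not overlap (28.2% of all genes, 25.6% in the same direction), at -1.16 (adjusted p = 0.0110 in limma, where 6.06% of all genes passed). Against that median, Cers2 stood at 0.34, Gal3st1 at 0.27, Fa2h at 0.22, Ugt8a at 0.20 and Sgms1 at -0.84. Without reference to the median, Cers2 was nearly level on deposited TPM, at 0.02 (adjusted p = 0.948 in limma). Quantile normalization turned Ugt8a to -0.06 and Sptlc2 to -0.03, lowered Cers2 to 0.22, Gal3st1 to 0.16, Fa2h to 0.06 and Degs1 to 0.05, and left Sgms1 at -0.85 (adjusted p = 0.0782 in limma). Fold changes also went with transcript length over 15221 genes (Spearman rho -0.21 across genes, which are not independent). With a curve on length removed, Cers2 was at 0.36, Ugt8a at 0.34 and Sgms1 at -0.77.

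Ratios within a library do not depend on a factor that divides all its genes alike, such as the size factor. Quantile normalization and the curve on length move genes by different amounts, so differences between genes can change under them. Of 9 ratios between chosen enzymes, 3 did not overlap between genotypes, a share close to the 27.7% over all pairs of genes tested. Ugt8a to Sgms1, the galactosyltransferase against the sphingomyelin synthase, was 8.45, 9.53 and 7.65 in WT and 24.6, 17.9 and 12.5 in Npc1-/-, a difference of 1.05 on the log2 scale. Cers2 to Cers4 was 15.7, 25.5 and 17.3 in WT and 27.0, 40.2 and 34.9 in Npc1-/- (0.82 on the log2 scale), and Ugt8a to Ugcg, the enzyme that adds glucose in place of galactose, was 76.0, 98.1 and 94.5 and then 98.9, 107 and 135 (0.34). That last difference was 0.23 without WT replicate 1 and 0.21 without Npc1-/- replicate 3. The balance within the galactolipid branch was nearly level: Fa2h to Ugt8a differed by 0.02 and Gal3st1 to Ugt8a by 0.07, both with overlapping genotypes. Ugt8a to Galc, synthesis against the enzyme that degrades galactosylceramide, differed by -0.06 and also overlapped. The other 3, Sptlc2 to Sptlc1 (-0.15), Cers2 to Cers6 (0.55) and Gal3st1 to Arsa, the sulfatidase (0.32), overlapped too. The two-sided exact permutation p was 0.1 for each ratio that did not overlap, the smallest that 3 mice against 3 allow, and 0.3 after Benjamini-Hochberg adjustment over the 9.

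Over all 45 pairs of the 10 genes, a set added after the values were seen, 17 ratios (37.8%) did not overlap, against 27.7% of all pairs of genes tested. Sgms1 took part in 8 of the 17, against each of the others except Cers4, and Cers2 took part in 7. Kdsr and Gal3st1 took part in 1 each, with Sgms1. Cers2 was higher relative to Fa2h by 0.12, to Ugt8a by 0.14 and to Degs1 by 0.22 on the log2 scale. With the length curve removed, the fold changes of Cers2, Fa2h, Ugt8a and Degs1 were 0.36, 0.30, 0.34 and 0.17. After quantile normalization they were 0.22, 0.06, -0.06 and 0.05. The mean ratio of Cers2 was higher in Npc1-/- against each of the other 9 genes, which follows from its fold change being the highest of the 10. Relative to Sptlc2, which hardly differed with size factors, Fa2h was higher by 0.26 and Ugt8a by 0.24.

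**Figure D3:**
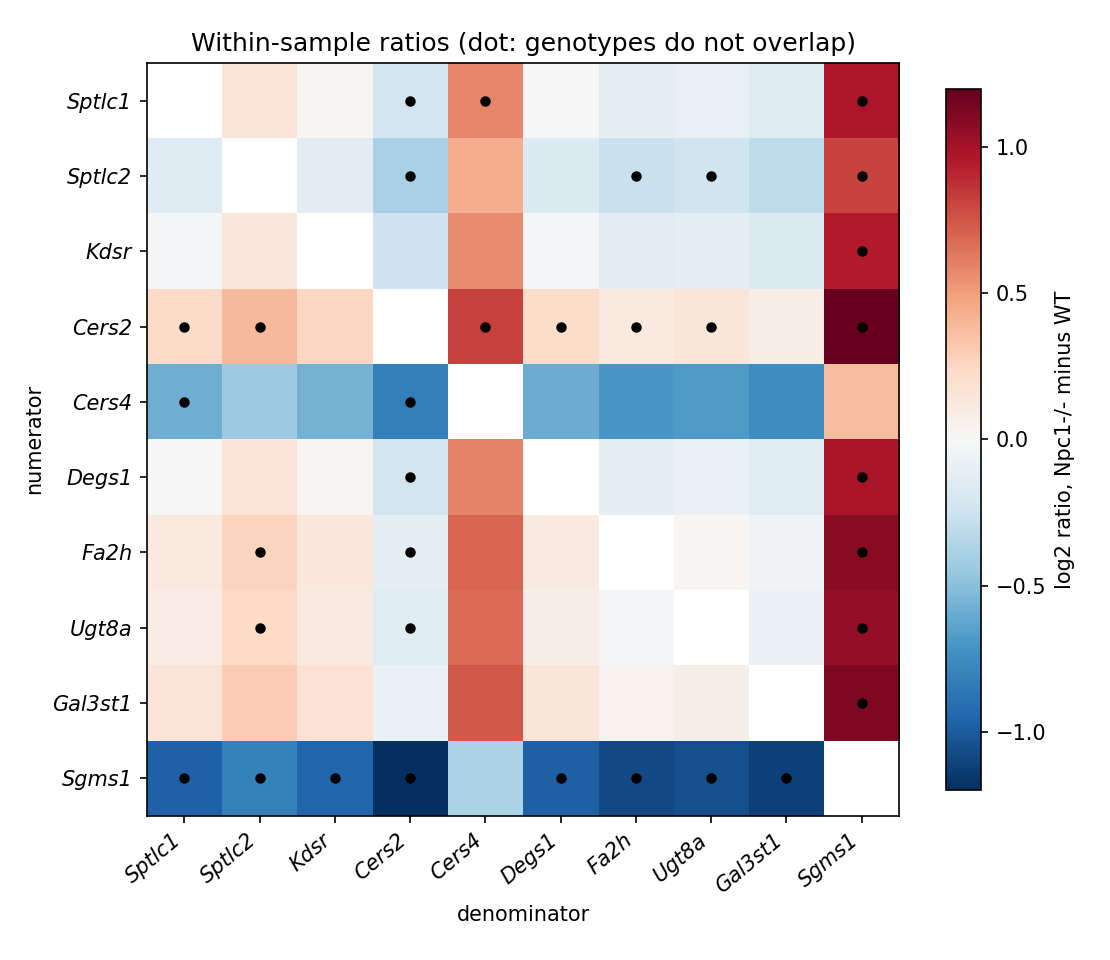
Difference between genotypes (Npc1-/- minus WT) in the log2 ratio of the gene in the row to the gene in the column, taken within each library, for all pairs of the 10 genes, with a dot where the 3 Npc1-/- and 3 WT ratios do not overlap. The Sgms1 row is blue throughout and dotted for 8 of its 9 pairs, and the Cers2 row is red throughout and dotted for 7 of 9. The uniform colours follow from Sgms1 having the lowest and Cers2 the highest fold change of the 10.

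Other genes of sphingomyelin synthesis were looked at beside Sgms1. Sgms2, Samd8 and Col4a3bp were picked after their values were seen. Col4a3bp, which encodes the CERT protein that carries ceramide to the Golgi, had 15.8, 14.0 and 14.7 scaled TPM in WT and 9.32, 9.93 and 13.4 in Npc1-/-, without overlap (log2 fold change -0.45, SE 0.14, adjusted p = 0.131 in limma). Sgms2, the plasma membrane synthase, had 9.37, 7.43 and 5.40 and then 5.60, 4.11 and 4.83 (-0.54, adjusted p = 0.179 in limma), with 1 mutant value inside the WT range. Samd8, a related gene, had 17.1, 19.3 and 19.5 and then 21.0, 18.8 and 21.2 (0.12, adjusted p = 0.504 in limma). Sgms1, Sgms2 and Col4a3bp therefore had lower means in Npc1-/- and Samd8 did not, and none of them passed the test.

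Among Npc1-/- replicates 1, 2 and 3, in which Sgms1 was at 18.0, 25.9 and 35.4, the summed endothelial markers were at 401, 568 and 659.6 and the summed microglia markers at 86.4, 120.2 and 157, in the same order. The order of Sgms1 was not particular to these sums. Those of the pericyte, myelinating, immature oligodendrocyte and astrocyte markers (277, 372 and 478 for the last) had it too. The progenitor, neuron and choroid plexus sums did not. Within the immature sum, Bcas1 (2417, 3733 and 5384) had this order. Enpp6, Bmp4, Gpr17 (498, 419 and 250) and Tcf7l2 ran the opposite way, and Itpr2 did not have it either. Within the myelinating sum, Mbp had this order, and Mag and Cnp ran the opposite way. Within the endothelial sum, Ly6c1 (103, 212 and 319), Pecam1 and Flt1 had this order. Cldn5 (224, 270.4 and 234) and Cdh5 did not. The size factors of Npc1-/- replicates 1, 2 and 3, by which TPM was divided, were 1.10, 0.855 and 0.727. Of the endothelial markers 4 of 5, of the microglia markers 6 of 7 and of the pericyte markers 3 of 4 were lower in Npc1-/- without overlap (14.2% of all genes), and Tmem119 among the microglia markers passed the test. Astrocyte markers were lower without overlap for 5 of 6, Gfap being higher without overlap. In WT, Sgms1 was highest in replicate 3 (48.5), the library with the lowest endothelial sum (748). The part of these cells in the Sgms1 values was not tested.

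**Figure D4:**
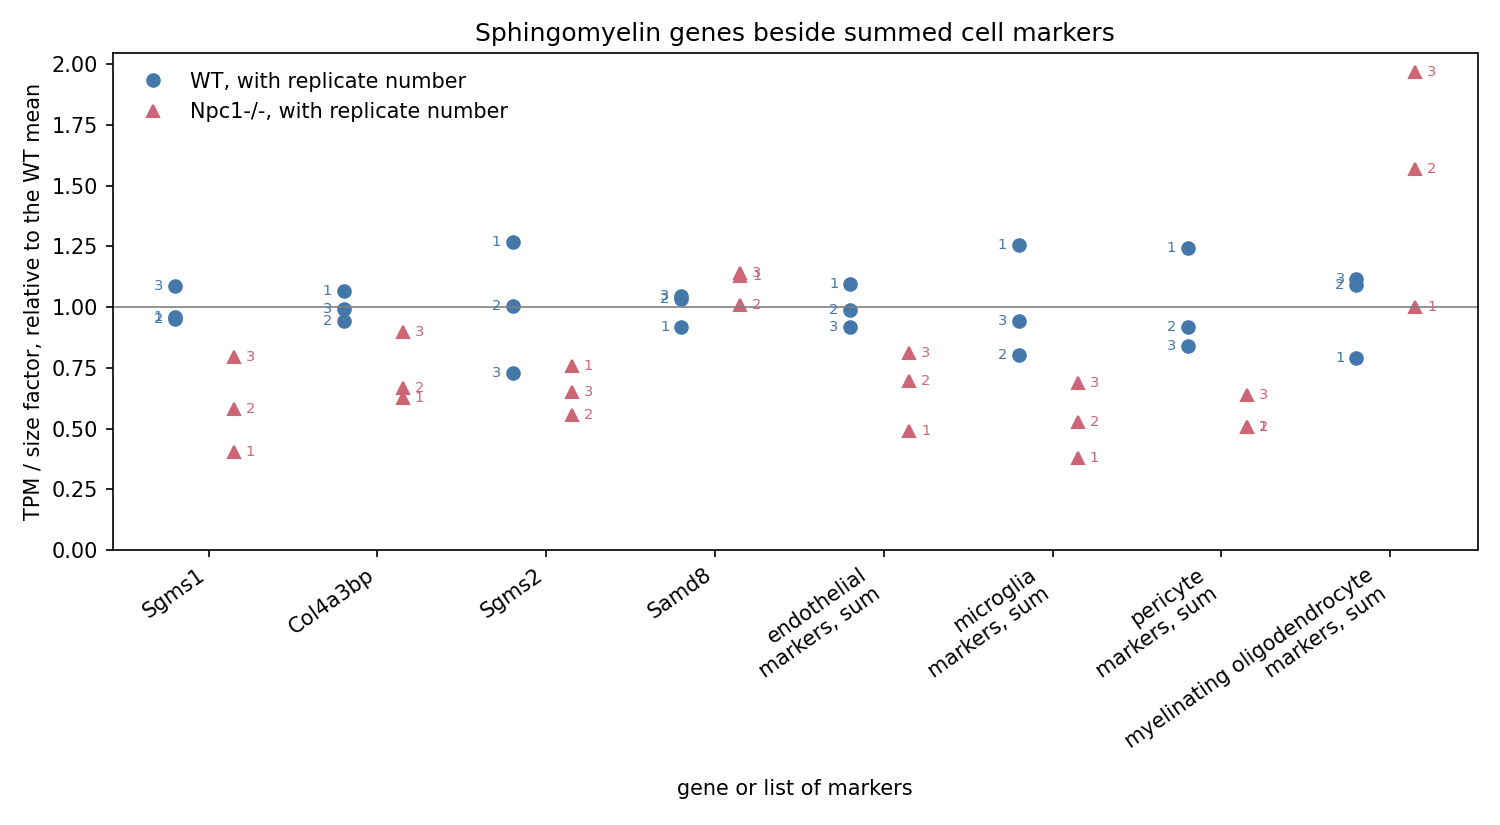
Levels (TPM divided by the size factor) of Sgms1, Col4a3bp, Sgms2 and Samd8 and summed levels of marker lists, each relative to its WT mean, in the 3 WT and 3 Npc1-/- libraries with their replicate numbers. In Npc1-/- the order of replicates 1, 2 and 3 is the same for Sgms1 (18.0, 25.9 and 35.4 scaled TPM), the endothelial sum (401, 568 and 659.6) and the microglia sum (86.4, 120.2 and 157). The pericyte sum (198.3, 198.8 and 250.4) and the myelinating sum (221742, 347552 and 436006) have it too.

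In the wider pathway, 43 other genes that feed, regulate or degrade these lipids fell into 6 lists, and 39 of them could be tested. None passed an adjusted p of 0.05 in limma. Of the 39, 6 had an unadjusted p below 0.05 (22.2% of all genes) and 7 did not overlap between genotypes (27.5% of all genes), both smaller shares than over the whole table. Of these 7, 5 were higher in Npc1-/- (13.3% of all genes) and 2 lower (14.2%). The median log2 fold change was 0.03. Sptlc3, Sptssb, Cers3 and Acer1 stayed below the filter, with a TPM of at most 0.73 in any library, and Acer1 was listed at 0 in all of them.

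Regulators of the first enzyme differed little. All 4 tested genes of this list overlapped, Sptssa, a small activating subunit and the highest of them, at 0.09 and Ormdl3, an inhibitory partner, at -0.13 on the log2 scale. Among the other synthases and the second desaturase, none of the 4 tested was apart: Cers5 (-0.04), Cers1 (0.07) and Cers6 (-0.07) were near level. Degs2, a desaturase that can also hydroxylate, had 6.48, 8.33 and 10.4 scaled TPM in WT and 2.96, 4.67 and 7.09 in Npc1-/- (-0.77, adjusted p = 0.185 in limma; -0.48 without Npc1-/- replicate 1), and it shares 9806 bases with Evl on the other strand.

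Among other users and carriers of ceramide, Cerk, the kinase that makes ceramide 1-phosphate, had the largest positive difference of all 39 genes. It was at 21.0, 24.6 and 23.7 scaled TPM in WT and at 30.4, 33.3 and 45.0 in Npc1-/-, without overlap (log2 fold change 0.62, SE 0.15, adjusted p = 0.0784 in limma). Gltp, a glycolipid transfer protein and the highest gene of the 6 lists, was level at 0.03, and Ugcg, which starts the glucosylceramide and ganglioside line, was at -0.08. Of the 9 genes that supply UDP-galactose and sulfate, none had an unadjusted p below 0.05. Papss1 and Slc35b2, the highest of these, were at 0.10 and 0.17, and Papss2, a synthase of the sulfate donor, was lower without overlap (3.06, 3.00 and 3.04 in WT, 1.59, 2.01 and 2.92 in Npc1-/-), with a log2 fold change of -0.43 that was -0.27 without Npc1-/- replicate 1.

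Among the 7 breakdown genes, 1 did not overlap between genotypes. Galc, which removes galactose from galactosylceramide, was higher in all Npc1-/- libraries, at 15.4, 16.7 and 15.9 and then 20.8, 18.1 and 20.4 (0.30, adjusted p = 0.119 in limma). Psap, the precursor of their activator proteins, and Arsa, which desulfates sulfatide, were both within 0.01 of level on the log2 scale, and Smpd1, the lysosomal sphingomyelinase, was at -0.08. Among the 9 tested genes of ceramidases and sphingosine metabolism, Asah1 (0.21, and 0.12 without WT replicate 3), Asah2 (0.23) and Sphk1 (0.44) were higher without overlap, the last at no more than 0.799 scaled TPM in any library, and Sgpp1, an S1P phosphatase, was at 0.08. On TPM as deposited, Galc, Asah1, Samd8 and several near-level genes changed sign.

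**Figure D5:**
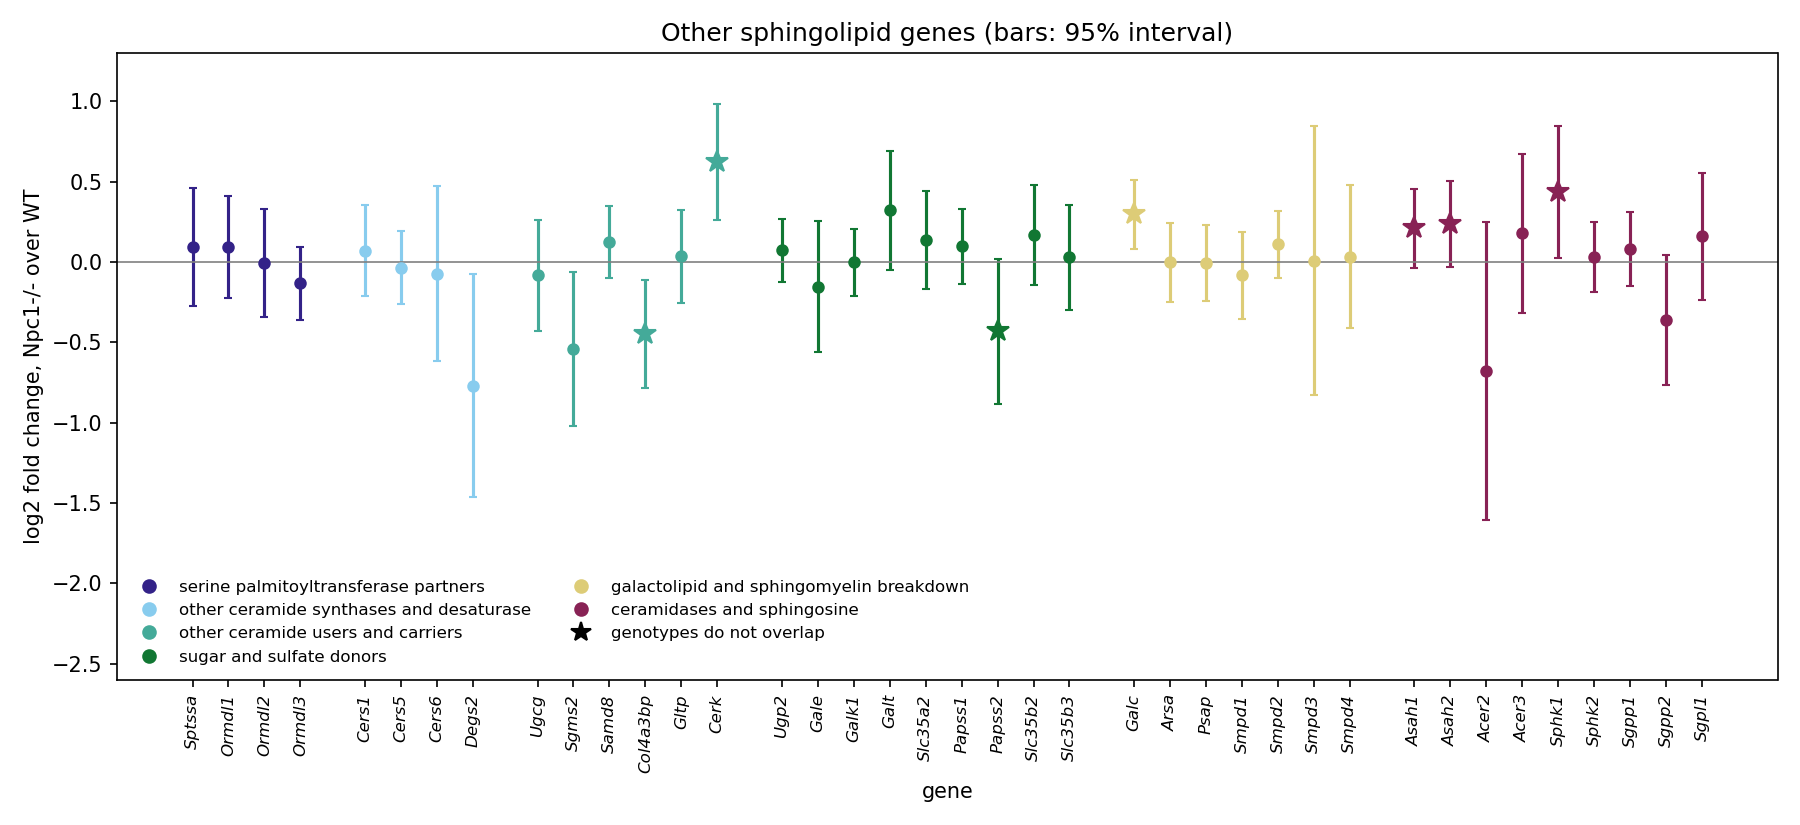
Log2 fold change of Npc1-/- over WT on the size-factor scale, with 95% intervals, for the 39 tested genes of 6 sphingolipid lists, with stars where the 3 Npc1-/- and 3 WT libraries do not overlap. Cerk (0.62) is the highest point and Degs2 (-0.77) the lowest, and 5 stars lie above 0 and 2 below.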

How the data were processed

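RNA of 6 libraries of O4+ cells, 3 WT and 3 Npc1-/- by the sample labels, was measured by paired-end sequencing. The methods name bbduk for trimming, STAR for mapping to GRCm38 and featureCounts for counting, whereas the submitters' processing notes name cutadapt 2.3, STAR 2.7.8a and RSEM 1.3.3. The authors deposited TPM and FPKM values per gene, and how these were made, and whether strand was used, is not given in the sources used here. FPKM served for the depth, taken as the number of fragments at which most low values of single-transcript genes came out whole (78.5% to 81.8% within 0.15, where chance gives 30%).

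TPM was divided by median-of-ratios size factors (0.727 to 1.30, from 18690 genes above 0 in every library). A pseudocount of 0.5 was added. For genes whose TPM averaged 0.5 or more, log2 values entered a linear model in limma (version 3.58.1, under R 4.3.3) with genotype as the factor and moderated variances with trend (eBayes). The p-values were adjusted by Benjamini-Hochberg over these 15245 genes, and a gene was called at an adjusted p below 0.05 and a log2 fold change of at least 0.1 in size. A fold change on this scale understates that of low genes. No count test was run. On simulated data with a log2 change of 1.5, 170 of 200 genes were recovered, with 8 false calls. The 10 genes had a median absolute log2 fold change of 0.26, and the widest was -0.79 for Sgms1. Changes of those sizes were not simulated. Positions and overlaps are from GENCODE M21 (GRCm38), where 55141 of the 55492 identifiers were found.

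The genes, lists, ratios and motifs were chosen with earlier results of these data known. Named were all 10 genes, the called genes, the 2 highest and the smallest p of each of 6 pathway lists, and the genes of the ratios. Of 9 marker lists, called markers and some of the 2 highest were named. Asah2, Mag, Cldn11, Cnp, Enpp6, Bmp4, Tcf7l2, Itpr2, Pecam1, Flt1, Cdh5, Sgms2, Samd8, Col4a3bp and Acer2 fall outside this rule and were picked with their values known. A further gene is not reported here. Marker lists are given by counts and sums, so the 2 highest markers of each were mostly left unnamed. Alternatives were FPKM, deposited TPM, quantile normalization, pseudocounts of 0.1 and 1, no filter or a mean TPM of 5, no trend, robust estimation, a transcript length curve (span 0.3), the replicate number as a block, and each library left out.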

Additional observations from a re-analysis of the deposited data

How the results depend on the processing

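The number of genes called over the whole table moved most: it was 924 on TPM as deposited, 225 after quantile normalization, 21 with no filter, 447 with a mean TPM of at least 5, 42 without trend and 5 to 477 with each library left out, beside 124. Of the 10 genes, 1 was called on TPM as deposited (Sgms1), 0 or 1 with each library left out (Sgms1 without Npc1-/- replicate 3) and 0 under the other alternatives without a block. Of the 43 other sphingolipid genes, 3 were called on TPM as deposited (Acer2, Col4a3bp and Degs2) and 0 to 1 with each library left out (Col4a3bp without Npc1-/- replicate 3). Of the 10 genes, 1 did not overlap on TPM as deposited, beside 5. With a library left out, genotypes are apart more often over the whole table too: 5 to 7 of the 10 were, and of all genes 34.2%, 34.6% and 39% without WT replicates 1, 2 and 3 and 42.9%, 32.5% and 40.7% without Npc1-/- replicates 1, 2 and 3. Fa2h to Ugt8a ran from -0.0118 to 0.0643 on the log2 scale with each library left out. The cause of these shifts was not tested.

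Signs turned as follows. On TPM as deposited the log2 fold change was -0.21 for Sptlc1, -0.36 for Sptlc2, -0.22 for Kdsr, -0.21 for Degs1, -0.10 for Fa2h, -0.12 for Ugt8a, -0.0590 for Gal3st1, -0.28 for Sptssa, -0.30 for Cers1, -0.34 for Gltp, -0.27 for Papss1, -0.20 for Slc35b2, -0.16 for Asah1, -0.28 for Sgpp1, -0.0664 for Galc and -0.24 for Samd8. After quantile normalization it was -0.0254 for Sptlc2, -0.0567 for Ugt8a, -0.34 for Gltp, -0.0468 for Papss1 and 0.0372 for Arsa, and with the transcript length curve -0.0252 for Sptlc2, 0.0528 for Psap and 0.0252 for Arsa. With each library left out it ran from -0.0386 to 0.0563 for Sptlc2, -0.0813 to 0.31 for Kdsr, -0.0390 to 0.23 for Sptssa, -0.0197 to 0.15 for Cers1, -0.0985 to 0.0112 for Cers5, -0.0491 to 0.12 for Gltp, -0.0539 to 0.0604 for Psap, -0.16 to 0.00369 for Smpd1, -0.15 to 0.0381 for Ugcg, -0.28 to 0.0520 for Cers6 and -0.0455 to 0.0547 for Arsa.

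WT and Npc1-/- libraries share replicate numbers, but the labels give them no common litter or day. The deviations of same-numbered libraries from their genotype means correlated at 0.414, 0.0602 and 0.326, so the numbers were not taken as pairs, although each library correlated best with its own number. A fit that took the numbers as a block (a replicate block) called 2011 genes (13.2%), among them 3 of the 10 (Cers2, adjusted p = 0.0232; Gal3st1, 0.0393; Sgms1, 0.0324, in limma) and 2 other sphingolipid genes (Cerk and Degs2).

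The 3 mice per genotype limit the precision: intervals on the 10 genes were wide enough that an adjusted p above 0.05 does not show equal levels.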
